A study of Danio rerio with 10 samples.

Results

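The genes described are those of the pancreatic serine proteases of zebrafish: the trypsins prss1, prss59.1 and prss59.2, the chymotrypsins ctrb.1 and ctrl, and the elastases ela2, ela2l, ela3l and cela1.6. Members were taken as array probe sets that the platform annotation assigns to exactly 1 of these 9 symbols. That gave 7 probe sets for 7 genes, of 15502 probe sets for 8793 genes on the array. No probe set was found for prss59.1 or prss59.2, by symbol or by gene ID, so prss1 is the only trypsin with values. The 7 were taken by symbol with no signal threshold, but the list of genes was chosen with earlier results of these data known. Counts of members set beside the share of all probe sets are therefore descriptions, not an independent test.

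RNA was measured in pools of whole embryos of the earl grey (egy) line, allele cz3, in an AB/WIK background. The groups were egy mutants on day 3 after fertilization (2 pools), their normal-looking siblings on day 3 (2 pools), egy mutants on day 5 (3 pools) and siblings on day 5 (3 pools). Heterozygous parents were mated and embryos were sorted by shape, so the sibling pools, called wild-type in the labels, may hold heterozygotes. The mutation lies in the gene for the orthologue of human p110, sart3, a splicing factor that helps to reassemble spliceosomal particles.

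Some labels disagree with the titles from which the groups were taken. The source label of mutant replicate 3 and of sibling replicate 2 of day 5 says day 4, and the series text also gives the later time as day 4. The strain label of sibling replicate 2 of day 3 says mutant, but its sart3 signal of 2517 lay beside the 2526 of the other day 3 sibling pool. The sart3 signal was 555 ± 132 in day 3 mutants and 2521 ± 6.51 in day 3 siblings (SD, n = 2 each), and 349 ± 399 in day 5 mutants and 2131 ± 416 in day 5 siblings (SD, n = 3 each). Mutant replicate 3 of day 5 stood apart, with a sart3 signal of 809, against 105 and 132 in the other day 5 mutant pools.

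The 7 enzymes and their relatives are made as inactive precursors by the acinar cells of the exocrine pancreas, stored in zymogen granules and released into the gut. Trypsin, once activated by enteropeptidase, activates the other precursors. The enzymes then cut proteins, trypsins after basic residues and chymotrypsins after large hydrophobic ones. In zebrafish the acinar cells switch these genes on during embryogenesis, before feeding begins, and the exocrine pancreas grows as the larva starts to digest food.

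All 7 genes were lower in mutants than in siblings on day 5, by 10.1-fold (ctrl) to 25-fold (ela2) as ratios of mean signals, and the lowest sibling pool lay above the highest mutant pool for each. The size rests on 1 pool: without mutant replicate 3 the ratios were 19.1-fold (ctrl) to 112-fold (ela2), 1.67 to 4.5 times as large. Of all probe sets, 8.15% fell on day 5, and 16.8% were lower in mutants without overlap. On day 3 the means were lower for all 7 as well, and only prss1 passed the test, beside 0.886% of all probe sets that fell. Each gene had the same order of group means: lowest in day 3 mutants, then day 5 mutants, then day 3 siblings, and highest in day 5 siblings. The middle neighbours in this order, day 5 mutants and day 3 siblings, overlapped for every gene, each time through mutant replicate 3 alone. The other 2 day 5 mutant pools lay below both day 3 sibling pools for all 7. That split leaves out the mutant pool with the highest signals, and its share over all probe sets was not computed. For scale, 28.1% of all probe sets were lower without overlap in the day 3 comparison, also of 2 pools against 2. The 2 lowest groups, day 5 mutants and day 3 mutants, overlapped for all but ctrl and ela3l, and day 5 siblings overlapped no other group. Without mutant replicate 3 the order of these 2 groups turned for ela2l, with means of 216 on day 5 and 313 on day 3. For ela2 they were then nearly equal, at 89.4 and 89.2. Because whole embryos were pooled, fewer acinar cells and less RNA per acinar cell cannot be told apart.

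**Figure D1:**
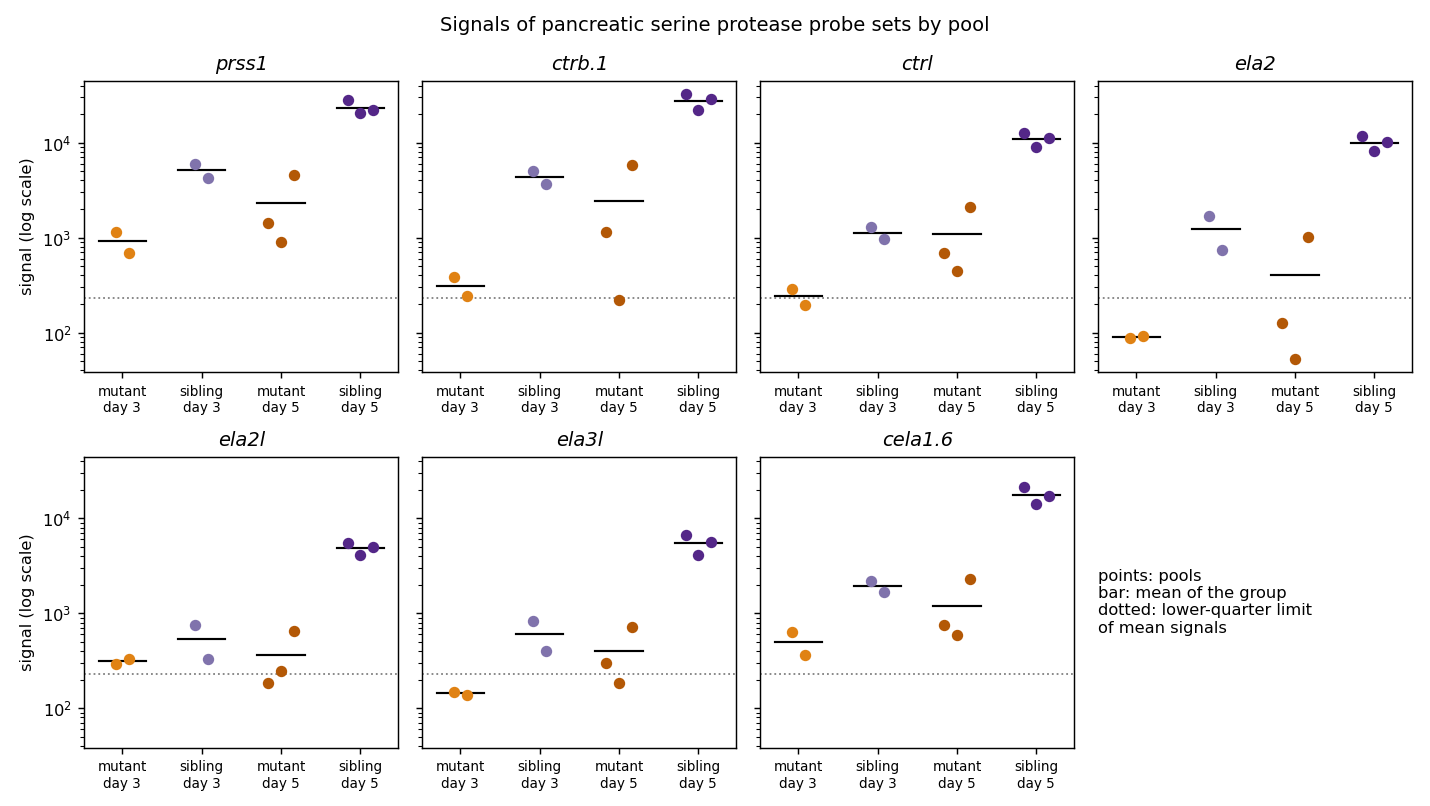
Signals of the 7 probe sets (vertical axis, log scale) in each pool (points), by group and day, with the group mean as a bar and the limit under which mean signals were left out of the test (232) as a dotted line. Day 5 siblings lie above every other group in all 7 panels, and 1 day 5 mutant pool lies above the other 2 in each.

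Signals are given below as deposited, in linear units, and compare pools for 1 probe set, not genes with each other. Log2 differences are those of log2(signal + 65) and are given ± SE with adjusted p-values from limma over 11626 probe sets. A signal under 232 is called low, since the 25% of probe sets with the lowest mean signals lay under it.

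Trypsin is the protease that activates the other pancreatic precursors. On day 3 the trypsin gene prss1 had signals of 1146 and 696 in mutants, against 5970.3 and 4299 in siblings. The day 5 signals were 1433, 896 and 4586 in mutants, against 28094, 20526 and 21856 in siblings. Mutants and siblings did not overlap on either day, and no prss1 signal was low. The log2 difference between mutants and siblings came to −2.42 ± 0.52 on day 3 (adjusted p = 0.0324) and −3.63 ± 0.42 on day 5 (adjusted p = 0.000103), or 5.58-fold and 10.2-fold lower mean signals in mutants.

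The day 3 call of prss1 was lost when any 1 of the 4 day 3 pools was left out, and also when any 1 of the 3 day 5 sibling pools was left out, which enter the shared estimate of spread. The day 5 call was kept without any single pool.

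Chymotrypsins cut after large hydrophobic residues. The chymotrypsinogen gene ctrb.1 had signals of 381 and 245 in day 3 mutants, against 5001 and 3692 in day 3 siblings. On day 5 it had 1149.6, 222 and 5868.5 in mutants, against 32398, 22183 and 28942 in siblings. The 3 day 5 mutant pools were thus 4.13%, 0.796% and 21.1% of the day 5 sibling mean, the widest spread between mutant pools among the 7 genes as a ratio of highest to lowest (26.5-fold), and the lowest was a low signal. Mutants and siblings did not overlap on either day. The log2 difference came to −3.55 ± 0.90 on day 3, which did not pass (adjusted p = 0.0661), and −4.44 ± 0.73 on day 5 (adjusted p = 0.00149).

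ctrl, a chymotrypsin-like gene, had signals of 287 and 196 in day 3 mutants, against 1291 and 966 in day 3 siblings. In day 5 pools it had 696, 449 and 2110.5 in mutants, against 12532, 9020.2 and 11294 in siblings. Its mutant and sibling pools did not overlap on either day, and 1 day 3 mutant pool was low. The log2 difference came to −1.96 ± 0.47 on day 3 (adjusted p = 0.0533, not past the threshold) and −3.53 ± 0.38 on day 5 (adjusted p = 6.29e-05).

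ctrb.1 lies next to ctrb.2, a second chymotrypsinogen gene, in RefSeq's gene order, and the array holds a probe set annotated to both. The shared probe set had 687 and 614 in day 3 mutants, against 6231 and 4385 in day 3 siblings. In the day 5 pools it had 1397, 426 and 6549 in mutants, against 37662, 23560.2 and 28749 in siblings (log2 difference −4.13 ± 0.64, adjusted p = 0.000922). ctrb.2's own probe set also fell on day 5, with 375, 178 and 349.6 in mutants, against 1509, 806 and 1734 in siblings (log2 difference −1.93 ± 0.32, adjusted p = 0.00144). Signal of ctrb.1 and of ctrb.2 may be split between these probe sets, so their separate values are uncertain.

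On day 5 the elastase gene ela2 had the lowest mean signal in mutants relative to siblings of the 7 genes. Its day 3 signals were 87.3 and 91 in mutants, against 1704 and 749 in siblings. The day 5 signals were 126, 52.9 and 1027 in mutants, against 11842, 8108 and 10177 in siblings. Both day 3 mutant pools and 2 of the 3 day 5 mutant pools were low, so the size of the difference is uncertain. The log2 difference came to −2.96 ± 0.73 on day 3 (adjusted p = 0.0604, not past the threshold) and −5.10 ± 0.60 on day 5 (adjusted p = 0.000111), the lowest of all 11626 probe sets.

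ela2l lies directly beside ela2 in RefSeq's gene order and carries the older synonyms ctrc and elastaseB there. On day 3 its signals were 293 and 333 in mutants, against 745 and 327 in siblings, and the groups overlapped. On day 5 they were 184, 249 and 654 in mutants, against 5565, 4158 and 5048 in siblings, with no overlap and 1 low mutant pool. The log2 difference came to −0.58 ± 0.42 on day 3 (adjusted p = 0.584; 95% interval −1.48 to 0.33) and −3.69 ± 0.34 on day 5 (adjusted p = 1.79e-05). Of the 7 genes it had the smallest day 3 difference.

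ela3l had signals of 149.9 and 139 in day 3 mutants, both low, against 824 and 397 in day 3 siblings. Its day 5 signals were 299, 183 and 726 in mutants, against 6729, 4082 and 5671 in siblings. The groups did not overlap on either day, and 1 day 5 mutant pool was low. Its log2 difference came to −1.61 ± 0.44 on day 3 (adjusted p = 0.0864, not past the threshold) and −3.72 ± 0.36 on day 5 (adjusted p = 2.26e-05).

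cela1.6, of the elastase 1 family, had signals of 638 and 362 in day 3 mutants, against 2179 and 1673 in day 3 siblings. In day 5 pools they were 745, 589 and 2290.4 in mutants, against 21314, 14063 and 17220.4 in siblings. No cela1.6 signal was low, and the groups did not overlap on either day. The log2 difference came to −1.85 ± 0.46 on day 3 (adjusted p = 0.0604, not past the threshold) and −4.01 ± 0.37 on day 5 (adjusted p = 1.91e-05).

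A pair of other elastase 1 genes had signals too low for the test. cela1.5 had 57.2, 24.3 and 43.5 in day 5 mutants, against 488, 210.3 and 442 in day 5 siblings. For cela1.1 the signals were 127, 77.4 and 224 in day 5 mutants, against 294, 151 and 300.5 in day 5 siblings. The mutant pools lay below the sibling pools for cela1.5 and overlapped them for cela1.1.

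The day 3 comparison asked whether the protease genes already differed 3 days after fertilization. Of the 7 genes, 1 (prss1) fell and none rose at an adjusted p under 0.05, beside 0.886% of all probe sets that fell. Mutant and sibling pools did not overlap for 6 of the 7, all lower in mutants, beside 28.1% of all probe sets. At an unadjusted p under 0.05, 6 of 7 were lower, all but ela2l, beside 14.7% of all probe sets in either direction. The median log2 difference was −1.96, against −0.029 over all probe sets. The number of genes past the threshold was 6 without mutant replicate 2 or without mutant replicate 3 of day 5, and 0 without any 1 of the day 3 pools or of the day 5 sibling pools. It was 6 with the replicate number as a block, although a pairing by number was not seen in the day 3 pools. With sibling replicate 2 counted as a mutant, as its strain label has it, the count was 0.

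The day 5 comparison asked the same at the later time. All 7 genes fell, beside 8.15% of all probe sets, and all 7 were without overlap and lower, beside 16.8%. Their median log2 difference was −3.72, against −0.0087 over all probe sets, and all 7 stood among the 13 lowest of the 11626. The 7 calls were kept in each of the alternatives tried, including the omission of any 1 pool and of both pools with a day 4 source label.

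**Figure D2:**
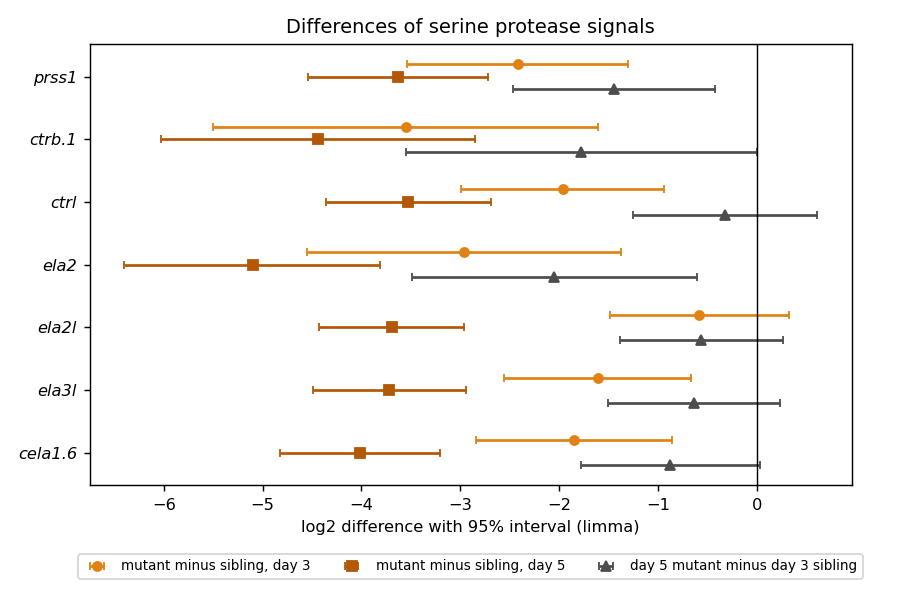
Log2 differences (horizontal axis, log2(signal + 65)) with 95% intervals from limma for each gene (vertical axis): mutant minus sibling on day 3 (circles), on day 5 (squares), and day 5 mutant minus day 3 sibling (triangles). The day 5 differences run from −5.10 (ela2) to −3.53 (ctrl), and the day 3 interval of ela2l crosses 0.

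On the log2 scale the difference was larger in size on day 5 than on day 3 for each gene, but the change between the days did not pass for any. As ratios of mean signals ctrb.1 went the other way, 13.9-fold lower in mutants on day 3 and 11.5-fold lower on day 5. The day 5 difference minus the day 3 difference ran from −3.12 ± 0.54 for ela2l (adjusted p = 0.118) to −0.88 for ctrb.1 (adjusted p = 0.92). The count was 0 of 7 by limma, as for all probe sets (0% called). At an unadjusted p under 0.05, 5 of the 7 were lower, beside 6.63% of all probe sets in either direction. Without mutant replicate 3 of day 5, 6 of the 7 passed, and with the replicate number as a block 1 did (ela2l).

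Day 5 mutants were then set against day 3 siblings, to place the later mutants beside the earlier normal state. The mutant and sibling pools overlapped for every gene, so 0 of 7 were without overlap, beside 29.3% of all probe sets lower and 23.3% higher. Each overlap came from mutant replicate 3 alone, and the other 2 day 5 mutant pools lay below both day 3 sibling pools for all 7. The share of all probe sets that do so without that pool was not computed, so this split is a description only. prss1 had a log2 difference of −1.44 ± 0.47 (adjusted p = 0.0371) and ela2 one of −2.05 ± 0.67 (adjusted p = 0.0375). These 2 of 7 genes fell, beside 15.9% of all probe sets, and none rose. The other 5 did not pass: ctrb.1 had a difference of −1.78 ± 0.82 (adjusted p = 0.128), and cela1.6 one of −0.88 (95% interval −1.78 to 0.03). ctrl lay nearest to 0, at −0.32 ± 0.43 (95% interval −1.25 to 0.61), with mean signals of 1085 ± 897 in day 5 mutants (SD, n = 3) and 1129 ± 230 in day 3 siblings (SD, n = 2).

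This comparison turned on single pools. Without mutant replicate 3 of day 5 all 7 genes were lower past the threshold, and without either day 3 sibling pool, mutant replicate 1 or mutant replicate 2 of day 5 none was. Without either day 3 mutant pool or sibling replicate 1 of day 5, 1 gene was lower, prss1. With the replicate number as a block 5 were lower. Over the 21 alternatives prss1 kept its call in 14 and ela2 in 11.

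Between the 2 ages, siblings and mutants were compared with their own earlier pools, so these comparisons share pools with those above. In siblings all 7 genes rose, beside 8.39% of all probe sets, and day 5 pools lay above day 3 pools for all 7, beside 25.3%. The ratio of day 5 to day 3 sibling means ran from 4.58-fold for prss1 to 9.7-fold for ctrl. The log2 differences in siblings were 2.19 for prss1 (adjusted p = 0.0084), 2.66 for ctrb.1 (adjusted p = 0.0405) and 3.21 for ctrl (adjusted p = 0.000784), and those of the 4 elastases lay between 3.06 and 3.14. Only 4 of 7 passed without sibling replicate 2 of day 3. The call of ctrb.1 was kept in 9 of 21 alternatives (adjusted p 5.17e-05 to 0.369), and each of the other 6 genes kept its call in at least 19.

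In mutants ctrl rose, by 1.64 ± 0.43 on the log2 scale (adjusted p = 0.0198), which is 1 of 7 genes beside 8.57% of all probe sets. Day 5 mutant pools lay above day 3 mutant pools for 2 of 7 genes, ctrl and ela3l, beside 21.2%. The other log2 differences in mutants, none past the threshold, were 0.97 for prss1 and cela1.6, 1.78 for ctrb.1, 0.92 for ela2, 0.98 for ela3l and 0.02 for ela2l. ela2l had a mean signal of 362 ± 255 in day 5 mutants (SD, n = 3) and 313 ± 28 in day 3 mutants (SD, n = 2). The call of ctrl was lost without either day 3 mutant pool, and 5 genes passed without mutant replicate 2 of day 5.

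Trypsin, chymotrypsins and elastases were compared by their differences between mutants and siblings. On day 5 the log2 difference was −3.63 for the trypsin gene, −4.44 and −3.53 for the 2 chymotrypsin genes, and between −5.10 and −3.69 for the 4 elastase genes. On day 3 it was −2.42 for the trypsin gene, −3.55 and −1.96 for the chymotrypsin genes, and between −2.96 and −0.58 for the elastase genes. On both days the trypsin gene lay between the chymotrypsin genes, and the ranges of chymotrypsin and elastase genes overlapped. Each of the 21 pairs of genes was then tested for a change of its log ratio between mutants and siblings, by a two-sided exact permutation test of the pools within each day with 120 arrangements. None of the 21 passed after Benjamini-Hochberg adjustment. The smallest adjusted p was 0.0701, at the smallest p the design allows (0.0167). A pair alone at that limit could not pass the adjustment over 21 pairs, whatever its change. The test therefore cannot decide whether the genes or classes differ.

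ela2 was in 4 of the 5 pairs at that limit. Its log ratio to ela2l was lower in mutants by 1.9, to ela3l by 1.37 and to cela1.6 by 1.1, and the log ratio of ctrl to ela2 was higher by 1.29 (exact permutation p = 0.0167 each, adjusted p = 0.0701). The fifth pair was ela2l and cela1.6, whose log ratio was higher in mutants by 0.79. Not every pair with ela2 was at the limit. The log ratio of prss1 to ela2 was higher by 1.01 (exact permutation p = 0.0333). That of ctrb.1 to ela2 was higher by only 0.04 (exact permutation p = 0.883). The ratios with ela2 include its low signals in the mutants, and the pseudocount holds down the size of a difference at such signals.

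The mutant pools of day 5 differed from each other in the same way for all 7 genes. Replicate 3 had the highest signal of the 3 for each gene, 2.43-fold (ela3l) to 8.16-fold (ela2) above the next. As shares of the day 5 sibling mean, replicate 3 ran from 10.2% (ela2) to 21.1% (ctrb.1), replicate 1 from 1.25% (ela2) to 6.36% (ctrl), and replicate 2 from 0.527% (ela2) to 5.06% (ela2l). sart3 moved with the proteases in replicate 3, at 38% of the sibling mean, against 4.92% in replicate 1 and 6.19% in replicate 2. Some genes of other digestive organs did too: the bile acid binding protein gene fabp6 of the ileum had 873 in replicate 3, against 298 and 174, and the liver gene fabp10a had 1637, against 374 and 547. By smaller margins, fabp2 of the intestine had 3554, against 2030 and 3016, and uox of the liver 1566, against 1105 and 1292. The liver gene tfa went the other way, with 12600 in replicate 3, against 19427 and 22554. Most other acinar enzyme genes were higher there: the carboxypeptidase gene cpa5 had 3117.5 in replicate 3, against 855 and 424. Likewise cpb1 had 2067, against 874 and 563, and cpa4 had 843, against 565 and 359. The lipase gene cel.1 had 445, against low signals of 16.7 and 31. The amylase gene amy2a did not rise above replicate 1, with 356 in replicate 3, against 358 and 235. The part of the day 4 source label and of the higher sart3 signal in these values was not tested.

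Among siblings, replicate 1 had the highest signal for all 7 genes on both days. On day 5 the lowest was replicate 2, the sibling pool with the day 4 source label, for all 7. Sibling replicate 2 of day 3, with the mutant strain label, lay above both day 3 mutant pools for 6 of the 7 genes. The exception was ela2l, where its signal of 327 lay between the mutant signals of 293 and 333.

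**Figure D3:**
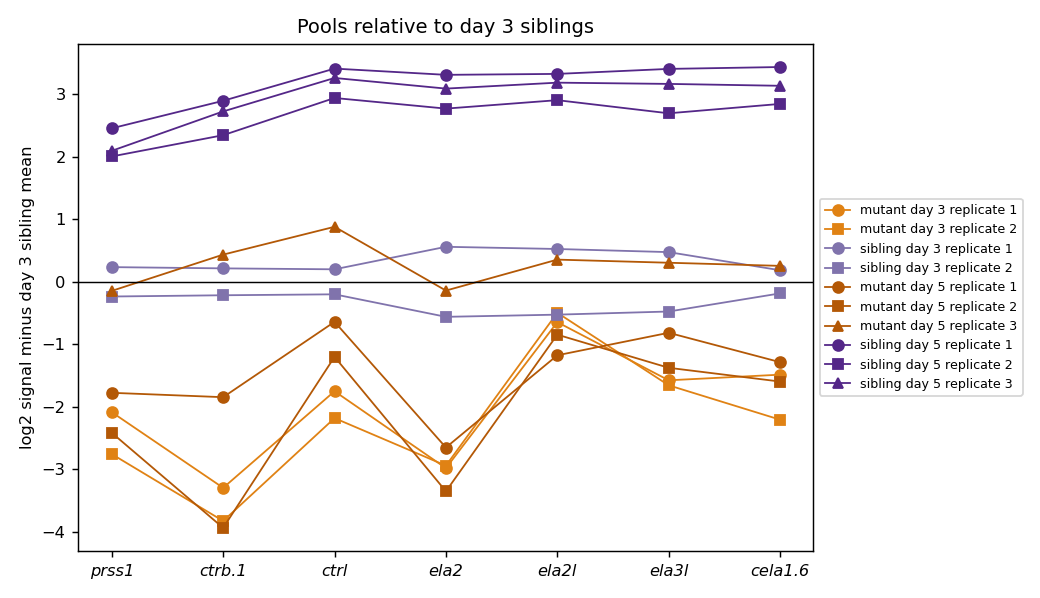
Log2 signal, as log2(signal + 65), of each pool minus the day 3 sibling mean (vertical axis) for the 7 genes (horizontal axis), with 1 line per pool. The 3 day 5 sibling lines run above all others, the line of mutant replicate 3 of day 5 runs near the day 3 siblings, and the other 4 mutant lines lie below 0 throughout.

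Signals of the 7 genes moved together over the 10 pools. Pearson's r between the log2 signals of 2 members ran from 0.887 to 0.993 over the 21 pairs (median 0.974), and Spearman's rho from 0.818 to 0.988 (median 0.964). The 10 pools fall into 4 groups that every gene shares, so these values describe the common group pattern and carry no test. The genes outside the family whose signals were most like the members' mean, by Pearson's r over the 10 pools among 7280 genes and with genes known only by a clone name skipped, were fabp6 (0.996), the carboxypeptidase genes cpb1 (0.996) and cpa5 (0.995), the cytochrome P450 gene cyp3a65 (0.99), fabp10a (0.987), the carboxypeptidase gene cpa4 (0.983), the lipase gene cell (0.975) and the steroid-binding globulin gene shbg (0.974). By Spearman's rho only 2 of these 8 were again among the closest 8.

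Other secreted enzymes of the acinar cell fell with the proteases on day 5. Of 14 listed, 8 were on the array and 6 were tested, and all 6 fell, beside 8.15% of all probe sets. Their median log2 difference was −2.67. The bile salt lipase gene cel.1 had a difference of −3.73 ± 0.52 (adjusted p = 0.000449), cpa5 of −3.69 ± 0.47 (adjusted p = 0.000216), cpb1 of −2.92 ± 0.32 (adjusted p = 6.15e-05) and amy2a of −2.42 ± 0.20 (adjusted p = 1.07e-05). The mean cel.1 signal was low in mutants on both days (164 on day 5 and 28.6 on day 3), so the size of its difference is uncertain. Of the 6, pla2g1b (−1.28 on day 5, adjusted p = 0.0118) had its place in the test only through the day 5 siblings. All its day 3 pools and 2 of the 3 day 5 mutant pools were low. On day 3, 2 of the 6 fell, cel.1 (−2.96, adjusted p = 0.0334) and cpa4 (−1.65, adjusted p = 0.00773). The summed signal of the acinar markers cpa5, cel.1, amy2a and ptf1a was 875 to 968 in day 3 mutants, against 3608 to 4146 in day 3 siblings, and 866 to 4195 in day 5 mutants, against 15676 to 22128 in day 5 siblings. None of these markers was at 0 in any pool.

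Regulators of the pancreas were tested next. Of 7 tested transcription factor genes 1 fell on day 5, the homeobox gene prox1a (−0.87 ± 0.18, adjusted p = 0.00565). In whole embryos the tissue of its signal cannot be told. None of the 7 passed on day 3 by limma, where 2 were lower at an unadjusted p under 0.05. The median was −0.1 on day 5, when 8.15% of all probe sets fell. ptf1a, which specifies the exocrine pancreas and drives acinar enzyme genes, had mean signals of 254 in day 5 mutants and 358 in day 5 siblings, with a log2 difference of −0.43 ± 0.20 that did not pass (adjusted p = 0.186; 95% interval −0.87 to 0.01). Its mutant pools lay below its sibling pools without overlap on both days, and 1 mutant pool of each day was low. Of all probe sets, 28.1% were lower without overlap on day 3 and 16.8% on day 5. In the secretory pathway of the endoplasmic reticulum, 2 of 26 tested genes rose on day 5 (ssr3 and kdelr2a) and 1 fell. Their median was 0.1, and of all probe sets 6.49% rose and 8.15% fell. The gene that fell was pdia2, a disulfide isomerase of the pancreas (−3.22 ± 0.31, adjusted p = 2.16e-05). Low in all 3 day 5 mutant pools, it had mean signals of 72.5 in day 5 mutants and 1102 in day 5 siblings. Its place in the test came from the day 5 siblings, without which its mean signal would have been low. Both day 3 mutant pools were low as well, and the day 3 sibling mean was 342.

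Hormones are made by the endocrine cells of the same organ. The hormone genes ins (insulin), gcga (glucagon) and sst2 (somatostatin) had log2 differences of 0.34 (adjusted p = 0.114), 0.38 (adjusted p = 0.0769) and 0.36 (adjusted p = 0.18) on day 5, none past the threshold. Mutant pools lay above sibling pools without overlap on both days for ins and gcga, but not for sst2. Of all probe sets, 15.1% did so on day 5 and 21% on day 3. Of 7 tested islet genes 3 fell on day 5: neurod1 (−1.44), isl1a (−0.78) and pax6b (−0.61), transcription factor genes that neurons also use. The median of the 7 was 0.19, on the other side of 0, and 8.15% of all probe sets fell. On day 3 neurod1 alone of the 7 fell (−0.71, adjusted p = 0.0234). The summed signal of ins, gcga, sst2 and isl1a was 7140 to 8231 in day 5 mutants, against 7810 to 8246 in day 5 siblings, a sum in which the lower isl1a signal offsets the higher hormone signals.

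Some genes of liver and intestine fell beside the proteases. On day 5, 4 of 8 tested intestinal genes fell (fabp6 −3.12, fabp2 −1.86, vil1 −0.78 and rbp2a −0.53), and 2 of 11 tested liver genes (fabp10a −3.13 and uox −1.26). The medians were −0.38 for intestine and 0.06 for liver, and 8.15% of all probe sets fell. On day 3 fabp2, vil1 and uox fell. The summed signal of fabp2 and fabp6 was 2329 to 4428 in day 5 mutants, against 11888 to 18502 in day 5 siblings, and that of fabp10a, tfa and uox was 15802 to 24392 in mutants, against 30333 to 35262 in siblings. The largest part of the liver sum is tfa, whose day 5 pools overlapped and whose difference did not pass (−0.32, adjusted p = 0.277). On day 3 the liver sum was higher in mutants, 23390 to 29572, against 21680 to 22967 in siblings. The intestinal sum was lower then too, 1404 to 2160 in mutants, against 3910 to 4679. Other genes of these lists had differences of either sign that did not pass, such as cp (0.43) and fga (0.28) for liver, and apoa4a (0.23) and apobb.1 (0.06) for intestine. The part of these organs in the protease values was not tested. Of 8 tested skeletal muscle genes 3 rose on day 5 by 0.27 to 0.36 (median of the 8, 0.22), beside 6.49% of all probe sets.

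Serine proteases of the same fold made elsewhere were tested as well. Of 41 listed genes of clotting, complement and membrane proteases, 15 were on the array and 9 were tested. By limma, 0 fell and 0 rose on either day. Among all probe sets, 8.15% fell and 6.49% rose on day 5, so for 9 genes a count of 0 is near the share of all. Of the 9, at an unadjusted p under 0.05, 2 were lower and 1 higher on day 5, and 0 either way on day 3. Their median log2 difference was −0.24 on day 5 and 0.08 on day 3. A probe set named prss59 in the annotation belongs to another gene than prss59.1 and prss59.2, and its difference on day 5 was 0.10 (adjusted p = 0.669).

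**Figure D4:**
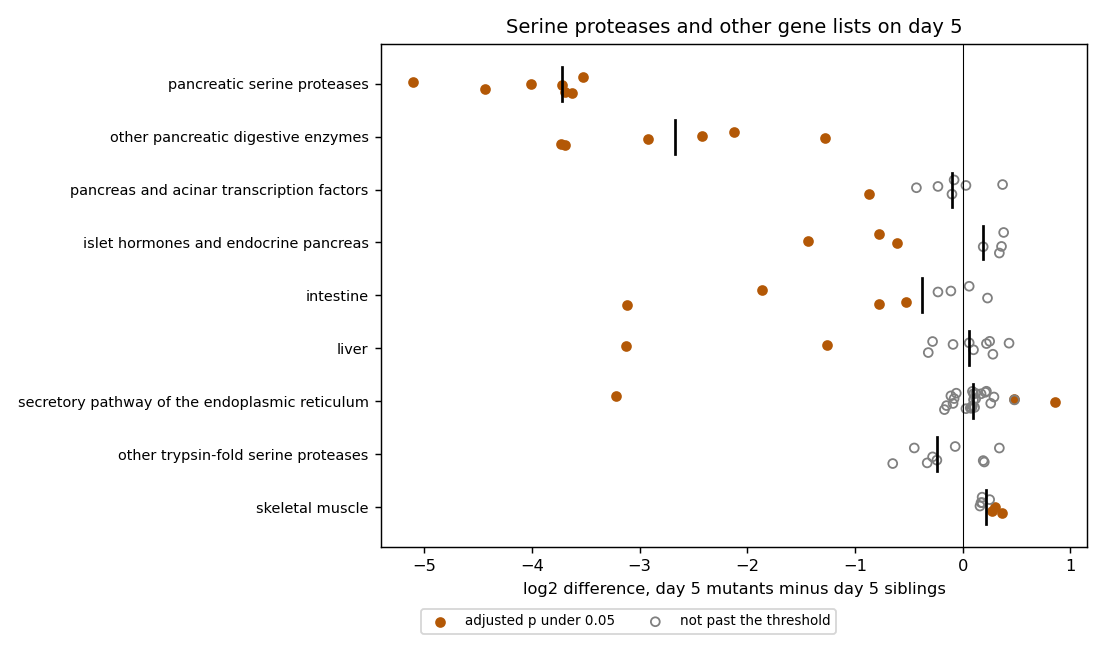
Log2 difference between day 5 mutants and day 5 siblings (horizontal axis) of each tested gene in the protease family and 8 other lists (rows). Filled points passed the threshold of an adjusted p of 0.05, open points did not, and bars are list medians: the proteases (median −3.72) and the other pancreatic enzymes (median −2.67) lie farthest below 0.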

How the data were processed

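The authors deposited 1 linear signal intensity for each probe set on each array, made with MAS5 per the submitters' processing notes. Its version is not given in the sources used here, and detection calls were not used. The 2% trimmed mean was equal on all 10 arrays (ratio at most 1.00004), so values are relative to the rest of the array, and they were used as deposited. Array medians were 596.5 to 670.9, and Spearman correlations within groups 0.968 to 0.988. The number of arrays limits the precision. After 115 controls were left out, the lowest 25% of probe sets by mean (limit 232) were dropped; all 7 members passed this filter. Platform annotation dated 2016 gave 1 symbol to 10795 probe sets, several to 135 and none to 4572.

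Values of log2(signal + 65) were fitted with 4 group means in limma (version 3.58.1, R 4.3.3), with 65 set at 10% of the median signal, trended eBayes moderation and Benjamini-Hochberg adjustment over 11626 probe sets. On simulated day 5 data it recovered 99% of 200 genes changed by 2 on the log2 scale, with 13 false calls. The simulated noise was independent between probe sets, with no effect shared within a pool, so these rates may not hold for the real pools. Replicates are biological per the labels, and p-values reflect variation among pools, not embryos. Deviations of same-numbered mutant and sibling pools correlated at 0.229 to 0.265 on day 5 and −0.047 on day 3. Pools of different number correlated at −0.149 to −0.107 on day 5. Deviations within a group sum to 0, so these negative values follow from the positive ones and are no separate support. On day 3 the pools of a group mirror each other, so both same-numbered pairs give the same value. Same-numbered pools went together weakly on day 5 only, and with so few pools this does not settle whether they were paired. The main fit used no pairing. The replicate block gives same-numbered pools of both days 1 shared effect. Its counts for comparisons with day 3 pools thus rest on a pairing not seen on day 3. Members, gene lists and the rule for named genes (all members, the 8 most similar genes, and up to 4 called genes per list and direction) were chosen with earlier results of these data known. The genes ctrb.2, cela1.1, cela1.5 and prss59 were added later by their shared names. After their values were seen, ptf1a, the hormone genes and the genes given for mutant replicate 3 were named, as were pla2g1b, cp, fga, apoa4a and apobb.1. Names and gene order came from a RefSeq table (GRCz12tu); coordinates and probe sequences were not used here. Alternatives covered pseudocounts, the filter, scaling, moderation, array weights, the replicate block, the groups fitted, the conflicting labels and each pool left out.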

Additional observations from a re-analysis of the deposited data

How the results depend on the processing

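On day 5 the count of lower members was 7 in every alternative. The other counts rest on few pools. The day 3 count (1) became 2 with a pseudocount of 2% of the median, 3 with quantile normalization, 0 without a trend or with sibling replicate 2 counted as a mutant, 6 with array weights, with the groups compared fitted alone, or without the 2 pools whose source label says day 4, and 0 to 6 with 1 pool left out. The change between days (0) became 1 with a pseudocount of 50%, 5 without the day 4 pools and 0 to 6 with 1 pool left out. Day 5 mutants against day 3 siblings (2 lower) gave 0 without a trend, with the 2 groups alone or with the relabelled pool, 7 without the day 4 pools and 0 to 7 with 1 pool left out. The rise in mutants (1) became 0 with the 2 groups alone or the relabelled pool and 0 to 5 with 1 pool left out. The rise in siblings (7) became 2 with the relabelled pool and 4 to 7 with 1 pool left out. With the replicate number as a block, the day 3 count was 6, the change between days 1 and day 5 mutants against day 3 siblings 5; it moved no other count of members by over 1.5 times. Apart from a smaller set of samples where pools were left out, the cause was not tested.

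Signs turned only for differences of members that were not past the threshold. Between the ages in mutants, ela2l had −0.22 with the replicate block, −0.44 without the day 4 pools and −0.44 to 0.33 with 1 pool left out (−0.06 when that was mutant replicate 1 of day 3). ela2 there had −0.04 without the day 4 pools and −0.04 to 1.57 with 1 pool left out. With 1 pool left out, ctrb.1's change between days was −1.99 to 0.19 and ctrl in day 5 mutants against day 3 siblings −0.92 to 0.12. The ends of the ranges of ela2, ctrb.1 and ctrl come from leaving out mutant replicate 3 or 2 of day 5. Over all probe sets, the day 3 count of 240 was 505 with array weights, 0 with the relabelled pool and 48 to 398 with 1 pool left out, and the day 5 count of 1701 was 1048 to 2046. Median centring moved the share of higher calls in day 5 mutants against day 3 siblings from 43% to 57.3%. Without detection calls, signals under 232 have no firm level. This limits ela2, ela3l, ctrb.2, cel.1, pla2g1b, pdia2 and single pools of ctrb.1, ctrl and ela2l in mutants.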
